A study of Mus musculus with 12 samples.

Results

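The question addressed here is which genes had a genotype difference in mouse spinal cord that was not the same at day 4 and day 15. All 12 arrays of the study enter it, in 4 groups of 3: wild-type mice at day 4, Olig2cre/DA-Cat littermates at day 4, wild-type mice at day 15 and Olig2cre/DA-Cat littermates at day 15. Olig2cre expresses Cre recombinase under control of Olig2, and DA-Cat is a dominant-active β-catenin that Cre switches on, so both are carried together by every mutant and no group had Cre alone. For each of 18194 genes the genotype difference (Olig2cre/DA-Cat minus wild type) of day 4 was subtracted from that of day 15, and the result is called the difference between days. Every gene was eligible, with 1 probe set per gene symbol, that with the highest mean over the 12 arrays. Levels are log2 signals, given for replicates 1, 2 and 3 of each group in that order. Differences are log2 and come from 1 limma fit with p-values adjusted by Benjamini-Hochberg over all 18194 genes. A gene is called where the adjusted p was under 0.05. Since Olig2 is used by the progenitors of motor neurons as well as of oligodendrocytes, Cre is not limited to myelinating cells.

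Oligodendrocytes make the myelin of the central nervous system. They arise from dividing precursors that carry Pdgfra, pass through a short premyelinating stage, and then switch on the genes of the myelin sheath under the transcription factors Olig2, Sox10 and Myrf. In canonical Wnt signalling, stabilized β-catenin enters the nucleus, joins TCF/LEF proteins on DNA and raises target genes, many of which, such as Axin2, Nkd1 and Notum, dampen the pathway in turn. Active Wnt signalling in the oligodendrocyte lineage is known to hold back maturation. In bulk tissue, fewer cells of a type and less RNA per cell cannot be told apart.

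The labels tag the days as developmental stages, while their protocol describes lysolecithin lesions in mice of 8 to 10 weeks, taken unlesioned or 14 days after the lesion; what day 4 and day 15 are counted from, and the age and strain of these mice, are not given in the sources used here. Replicates are labelled as biological, without the number of animals in each. The p-values therefore rest on the spread between these samples, which need not be that between single animals. The source label names ventrolateral white matter, yet the mean level of 20 neuron genes was 11.64 to 11.88 on all 12 arrays, against array medians of 6.14 to 6.19. Skeletal muscle genes varied from array to array within groups, with a list mean of 5.23 to 10.53 and the highest value on the library labelled Olig2cre/DA-Cat day 15 replicate 1. The Y-linked gene Eif2s3y was at 3.29 on the library labelled Olig2cre/DA-Cat day 15 replicate 2 and at 6.54 to 8.82 on the other 11. Xist, the RNA of the inactive X chromosome, was at 5.49 on Olig2cre/DA-Cat day 4 replicate 2 and 5.64 on wild type day 15 replicate 2, and at 10.73 to 12.50 on the other arrays. Sex is not stated in the sources used here.

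The genotype difference depended on the day for 64 genes (0.352% of the genes tested). It was positive for 35 (0.192%) and negative for 29 (0.159%), and 1843 genes had an unadjusted p under 0.05. Among the 35, 33 were lower in Olig2cre/DA-Cat at day 4 and less so, in log2, at day 15. Among the 29, 4 were higher in Olig2cre/DA-Cat at day 4 and less so at day 15, and the other 25 were lower at day 15, 22 of them with the opposite sign at day 4 and a call at 1 day or both. The counts leaned on single arrays: positive calls numbered 27 to 57 and negative calls 18 to 40 when each array was left out in turn. The highest positive count, 57, came without Olig2cre/DA-Cat day 15 replicate 1. Fewer than 20 negative genes were called without wild type day 4 replicate 1 (19), wild type day 4 replicate 2 (19), Olig2cre/DA-Cat day 4 replicate 2 (19), Olig2cre/DA-Cat day 4 replicate 3 (18) or wild type day 15 replicate 1 (19). Without the 3 arrays that stood apart in Eif2s3y or Xist, 39 genes were called, 22 positive and 17 negative. All 64 kept their sign in each of those fits.

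**Figure D1:**
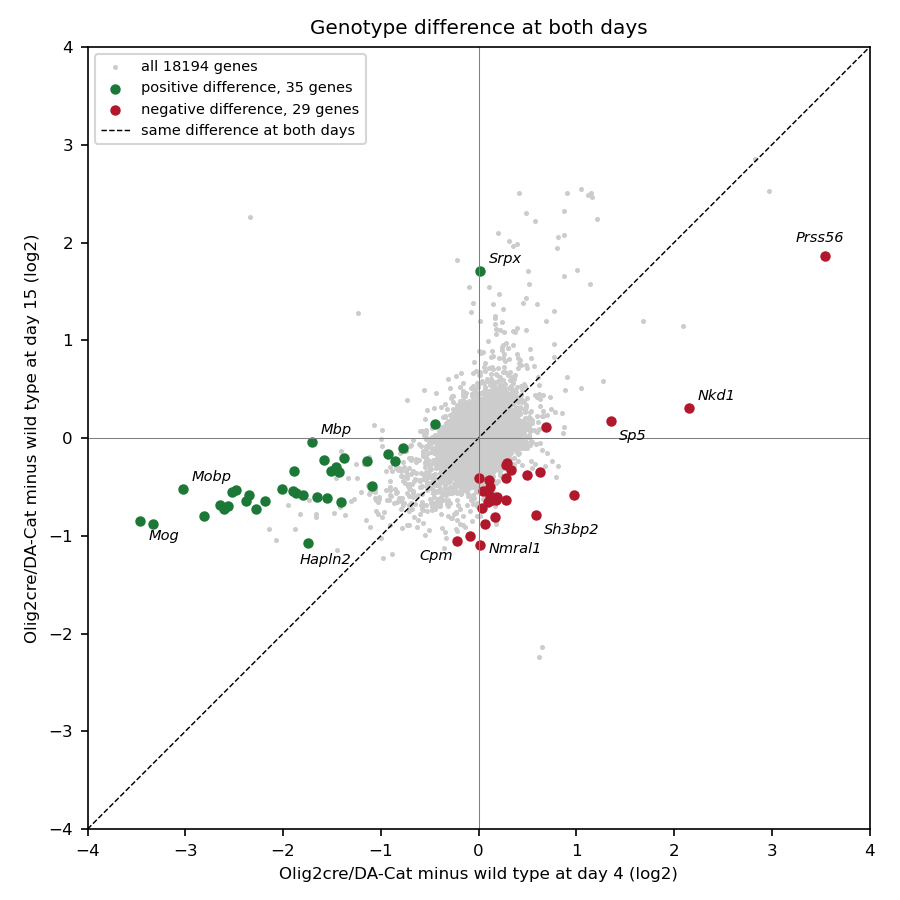
Genotype difference, mutant minus wild type, of day 4 (horizontal axis, log2) against that of day 15 (vertical axis, log2) for 18194 genes, with the 35 positive and 29 negative genes coloured and a dashed line where both days are equal. The green genes reach left to -3.46 at day 4 (Mog), while their lowest day 15 value is -1.07 (Hapln2), and most red genes lie below 0 on the vertical axis.

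The 33 genes with a gap that narrowed had a median genotype difference of -1.87 at day 4 and -0.56 at day 15. The median share of the day 4 log2 difference still present at day 15 was 25.9%, from 2.63% for Mbp, read from a probe set near the top of the scale, to 61.5% for Hapln2. From day 4 to day 15 all 33 rose in Olig2cre/DA-Cat and 32 rose in wild type, by a median of 2.60 and 1.18. Selection by a positive difference favours a larger rise in Olig2cre/DA-Cat, and the share of all genes called for a rise was not counted. The myelin, newly formed oligodendrocyte and precursor lists had 29, 18 and 18 genes measured, of 18194 in all. They were chosen with earlier results of these data known. These oligodendrocyte lists held 23 of the 33: Mobp, Mbp, Fa2h, Ermn, Tmem88b, Mag, Ugt8a, Cldn11, Mog, Mal, Cnp, Bcas1, Tmem125, Cnksr3, Tns3, Sirt2, Nfasc, Enpp6, Tnr, Pllp, Nipal4, Adamts4 and Hapln2. Those on none of them were Gsn, Cdk18, Srpk3, Sema4d, Plxnb3, Sox2ot, Zfp365, Mob3b, Lims2 and Slc44a1. At day 15 the Olig2cre/DA-Cat means of Cnksr3 and Adamts4 were still below both wild-type means, and those of the other genes lay between them. Both days were called for 18 of the 33 and day 4 alone for 15, where 1.81% of all genes were called lower at day 4 and 2.31% at day 15. The genes were selected by a difference that contains both single-day values and by being lower at day 4. Their single-day calls are therefore a description and not separate support. Calls held without any 1 of the 12 arrays for 24 of the 33.

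Of 29 myelin and mature oligodendrocyte genes measured, 16 were called with a positive difference between days and 0 with a negative one. The list's median was 1.22, against -0.01 over all genes, and 25 of the 29 were called lower at day 4 and 21 at day 15. Mobp, a small basic protein of compact myelin, had the smallest p of all genes. It was at 12.38, 12.30 and 12.46 in wild type and at 9.48, 9.36 and 9.24 in Olig2cre/DA-Cat at day 4, and at 13.88, 13.77 and 13.94 against 13.23, 13.48 and 13.32 at day 15. The genotypes did not overlap at either day, but the gap was far wider at day 4. The genotype difference went from -3.02 ± 0.08 (SE) at day 4 to -0.52 ± 0.08 at day 15, a difference between days of 2.50 ± 0.12 (limma adjusted p = 1.41e-06).

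Mog, a glycoprotein of the outer myelin surface, had the largest difference of the 64. Wild-type levels were 9.004, 8.77 and 9.01 at day 4, where Olig2cre/DA-Cat lay at 5.80, 5.51 and 5.10. By day 15 wild type stood at 11.75, 11.50 and 11.71 and Olig2cre/DA-Cat at 10.61, 11.05 and 10.73. The mutant arrays were lowest at day 4, and they stayed below every wild-type array of day 15. The difference between days was 2.61 ± 0.23 (limma adjusted p = 0.000144), from -3.46 to -0.85.

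Mbp, which holds the cytoplasmic faces of the myelin membrane together, ended with no gap that passed the test. It was at 14.40, 14.25 and 14.27 against 12.67, 12.66 and 12.50 at day 4, and at 14.69, 14.65 and 14.65 against 14.59, 14.64 and 14.62 at day 15, wild type first. At day 15 the arrays of both genotypes lay close together without overlapping, just below the highest value of any probe set on an array, 14.71 to 15.05. Whether values so near the top were compressed was not tested. The genotype difference was -1.70 ± 0.06 at day 4 and -0.04 ± 0.06 at day 15 (limma adjusted p = 0.779 for day 15). The difference between days was 1.65 ± 0.09 (limma adjusted p = 4.15e-06). The 8 Mbp probe sets gave 0.10 to 2.29, and the dim ones at 0.10 (mean level 8.49) and 0.33 (6.84) were not called. The one at 2.29, with a mean of 12.96, had genotype differences of -2.58 and -0.29, so the day 15 gap depended on the probe set.

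Cnp, an enzyme that keeps cytoplasmic channels open in myelin, had a similar course. It was at 13.98, 13.87 and 13.90 in wild type and 12.53, 12.65 and 12.44 in Olig2cre/DA-Cat at day 4. At day 15 the levels were 14.34, 14.36 and 14.37 against 14.02, 14.26 and 14.18. The groups stood apart at both days, although the day 15 genotype difference of -0.20 was not called, and the difference between days was 1.17 ± 0.11.

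Other sheath genes kept a called day 15 gap. Ermn, a cytoskeletal protein of late oligodendrocytes, went from -3.33 ± 0.14 to -0.88 ± 0.14. Mag, an adhesion protein of the innermost myelin layer, went from -2.48 ± 0.11 to -0.53 ± 0.11. For Cldn11, which forms the tight junctions of central myelin, the values were -2.64 ± 0.12 and -0.68 ± 0.12. Mal, a proteolipid of compact myelin, went from -2.35 ± 0.11 to -0.59 ± 0.11. Their differences between days ran from 1.76 for Mal to 2.45 for Ermn. On the arrays, Olig2cre/DA-Cat day 15 replicate 2 was the highest mutant of day 15 for Mobp, Mog, Mbp, Cnp, Ermn, Mag, Cldn11 and Mal.

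The myelin list also held genes without a call. Opalin, a transmembrane sialoglycoprotein of central myelin, was lower at both days, with a day 15 value of -1.02 ± 0.21. Its difference between days was -0.02, with a 95% interval of -0.66 to 0.62. Ninj2 was at -0.91 and -0.89, with an interval of -0.62 to 0.65 for the difference. Aspa, which splits N-acetylaspartate in oligodendrocytes, had a genotype difference of -0.36 on day 4 and -1.12 on day 15. Its value between days was thus opposite in sign to the sheath genes, -0.76 ± 0.17 (limma adjusted p = 0.0906). Efnb3, Car2 and Cryab also had negative values, at -0.64, -0.34 and -0.62, none called. In wild type Opalin rose by 5.30 and Aspa by 2.82 between the days. Whether the size of the wild-type rise goes with the difference between days was not tested.

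**Figure D2:**
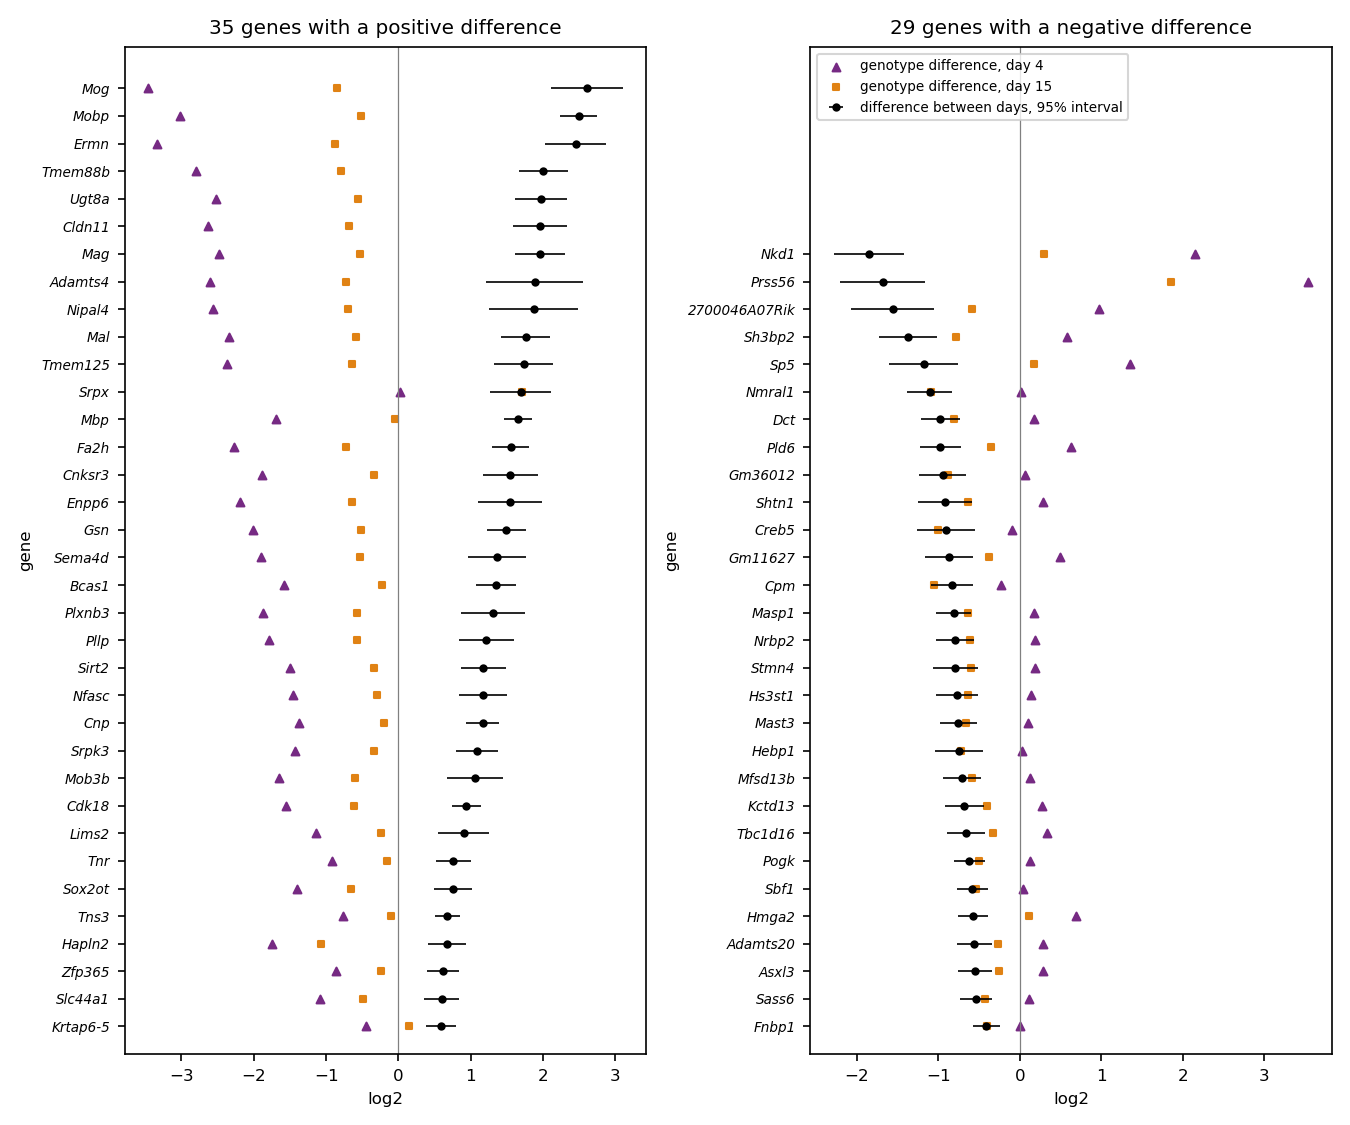
Genotype difference at day 4 (triangles), at day 15 (squares) and the difference between days with its 95% interval (circles), all in log2, for the 35 genes with a positive (left) and 29 with a negative (right) difference. On the left nearly all triangles lie further from 0 than the squares; on the right most squares lie below 0 and most triangles at or above it.

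The promoter of Mobp is printed because it belongs to the gene with the smallest p and held more copies of a searched motif than the other promoters shown here. TCF/LEF and SOX proteins both bind DNA through an HMG box, and the letters CTTTGA and CTTTGT, read on either strand as TCAAAG and ACAAAG, are close to their recognition cores. The window is the 250 bases before the RefSeq start of the gene, assembly GRCm38.p6, chr9:120149492-120149741, plus strand, with matches in capitals.
Mobp: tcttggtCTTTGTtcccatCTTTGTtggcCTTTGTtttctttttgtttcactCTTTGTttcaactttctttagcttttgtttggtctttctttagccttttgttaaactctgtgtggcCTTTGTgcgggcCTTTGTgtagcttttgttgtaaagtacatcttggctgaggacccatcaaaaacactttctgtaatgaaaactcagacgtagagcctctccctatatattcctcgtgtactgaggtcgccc
It held 6 matches of ACAAAG or CTTTGT and 0 of TCAAAG or CTTTGA. Promoters were found for 27 of the 33 genes, and 8 of these (29.6%) held ACAAAG on either strand, against 18.6% of 27025 genes in the RefSeq promoter table. TCAAAG was in 3 of the 27 (11.1%) and in 15.8% of all. A match describes letters in this window and is not a binding site.

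On a linear scale the gap narrowed for some of the 33 only. The log2 values were turned back to signals and the group means subtracted, after the log2 results were seen, with no test. The gap at day 15 was larger than at day 4 for 14 of the 33 and smaller for 19, and 5 lay within 10% of equal. Mog had a linear gap (mutant minus wild type) of -443 at day 4 and -1432 at day 15. Mobp was nearly level, at -4675 and -4522, and Cldn11 at -1336 and -1334. Cnp was at -9476 and -2725 and Mbp at -14076 and -792. For Mog the mean signal was 45.1 and then 1798 in Olig2cre/DA-Cat, and 488 and then 3230 in wild type. For the 29 genes with a negative difference the linear sign was the same as the log2 sign.

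**Figure D3:**
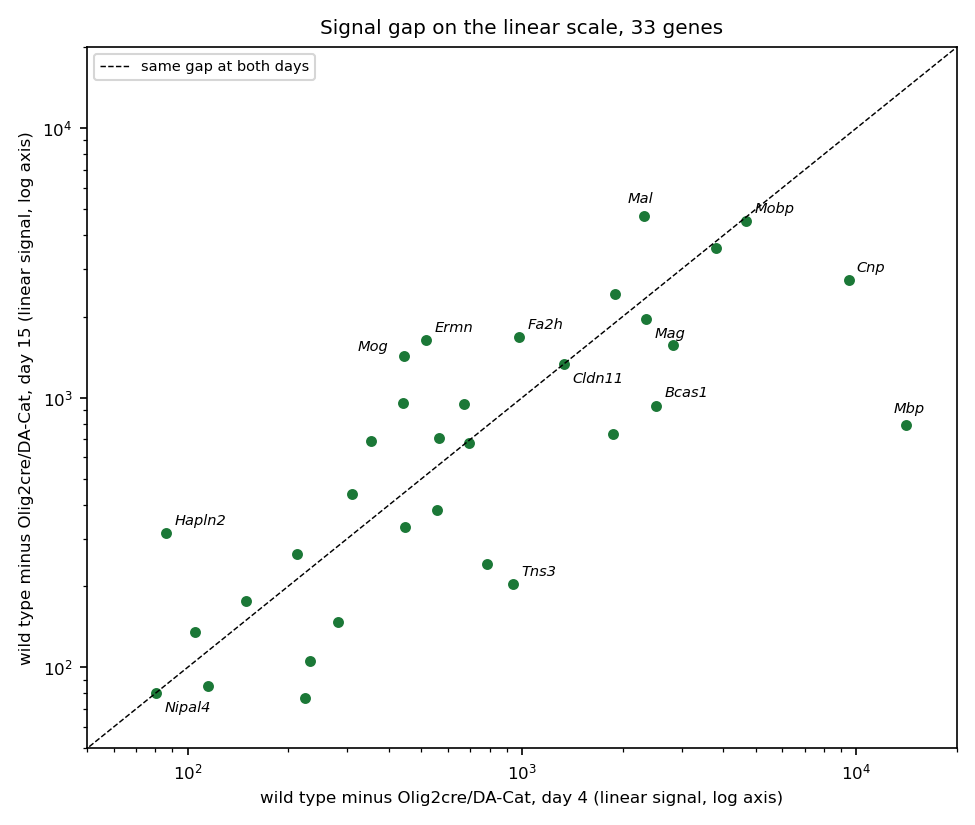
Wild type minus Olig2cre/DA-Cat in linear signal at day 4 (horizontal, log axis) and day 15 (vertical, log axis) for the 33 genes, 1 point per gene, with a dashed line where both gaps are equal. Points fall on both sides of the line: Mog, Ermn, Mal and Hapln2 above it, Mobp, Cldn11 and Nipal4 on or near it, and Mbp, Cnp, Bcas1 and Tns3 below.

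Of 18 genes of newly formed oligodendrocytes, 6 were called with a positive difference and 0 with a negative one, and the median of the 18 was 0.87. Bcas1, which marks cells starting to myelinate, was at 11.90, 11.86 and 11.91 against 10.36, 10.44 and 10.13 at day 4, and at 12.68, 12.66 and 12.69 against 12.28, 12.59 and 12.47 at day 15. The day 15 gap was small but the arrays did not overlap. Its difference between days was 1.35 ± 0.13 (limma adjusted p = 0.000258); the mean over its 3 probe sets was not called (adjusted p = 0.256). Sirt2, a deacetylase of myelin, was at 12.11, 12.01 and 12.15 against 10.57, 10.63 and 10.56 at day 4 and at 12.75, 12.98 and 13.00 against 12.34, 12.75 and 12.65 at day 15, where the ranges of the genotypes met. The difference was 1.17 ± 0.14. The others were Cnksr3 (1.55), Enpp6 (1.54), Nfasc (1.17) and Tns3 (0.67), of which Enpp6 marks the premyelinating stage. Without variance moderation Enpp6 (adjusted p = 0.0639) and Nfasc (0.0506) were not called, and Tns3 was not called by the mean over its probe sets (0.0789). Without the 3 arrays apart in Eif2s3y or Xist, Nfasc (0.0579) and Tns3 (0.0611) were not called.

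Tnr, a tenascin of the matrix, was the 1 called gene of 18 on the precursor list, whose median was 0.17. It was not called with Eif2s3y as a covariate (adjusted p = 0.0655) or without the 3 arrays apart in Eif2s3y or Xist (0.117). Pdgfra, the growth factor receptor of precursors, had a difference of 0.16 (95% interval -0.11 to 0.42). Olig2 was at -0.90 ± 0.10 and -0.44 ± 0.10 and Sox10 at -1.06 ± 0.13 and -0.61 ± 0.13, called lower on both days, and neither difference between days was called (limma adjusted p = 0.272 and 0.428). Without Olig2cre/DA-Cat day 15 replicate 1 Olig2 was called (0.60, adjusted p = 0.00663).

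Myrf, which switches on the myelin genes directly, just missed the threshold. It was at 9.74, 9.72 and 9.60 against 7.65, 8.05 and 7.87 at day 4, and at 10.28, 10.13 and 10.59 against 9.28, 9.69 and 9.71 at day 15. No array of one genotype reached the other at either day. The difference of 1.06 ± 0.20 had an adjusted p of 0.0516, which became 0.0127 without Olig2cre/DA-Cat day 15 replicate 1 and 0.0229 without wild type day 15 replicate 3. Gpr17, a receptor of the premyelinating stage, was at -1.41 and -0.13 (1.28, limma adjusted p = 0.06). It was called without wild type day 15 replicate 3 (0.0375) or Olig2cre/DA-Cat day 15 replicate 1 (0.0102). Bmp4 was at -0.73 and 0.39 (1.12, adjusted p = 0.06) and was called without wild type day 15 replicate 3 (0.0255).

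Among enzymes of lipid synthesis, Ugt8a, which adds galactose to ceramide in the making of galactosylceramide, was at 12.29, 12.05 and 12.16 against 9.67, 9.82 and 9.43 at day 4. At day 15 it was at 13.44, 13.40 and 13.58 against 12.74, 13.14 and 12.87. Fa2h, which hydroxylates the fatty acids of that lipid, was at 10.31, 10.11 and 10.37 against 7.98, 8.03 and 7.97, then 12.06, 12.01 and 12.13 against 11.21, 11.48 and 11.34. For both genes mutant arrays lay below wild-type arrays at each day, by less at day 15. They had differences of 1.97 and 1.55 and were the 2 called of 21 sphingolipid and fatty acid genes, whose median was 0.06. Elovl7, which lengthens fatty acids, had 1.26 (limma adjusted p = 0.0633) and was called without wild type day 4 replicate 1 (0.0314) or Olig2cre/DA-Cat day 15 replicate 1 (0.0296).

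Cholesterol synthesis, also needed for myelin, had 0 of 19 called in the limma fit and a median of -0.01, with single values from -0.22 to 0.15. Its genotype difference had a median of -0.27 at day 4 and -0.31 at day 15, and 6 genes were called lower at each day (background 1.81% and 2.31% of genes called lower). Its smallest adjusted p was 0.632.

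Among 17 genes of the node of Ranvier and axon contact, Nfasc, whose glial form anchors the paranode, and Hapln2, a link protein of the nodal matrix, were called. Hapln2 was at 6.99, 6.78 and 7.04 against 5.27, 5.23 and 5.08 at day 4 and at 9.34, 9.20 and 9.13 against 8.19, 8.21 and 8.06 at day 15. It kept the widest day 15 gap of the 33, at -1.07 ± 0.09. Its call (0.67 ± 0.12, limma adjusted p = 0.0436) was lost without any 1 of 10 arrays, at adjusted p of 0.0569 to 0.134, and held without wild type day 4 replicate 2 or wild type day 15 replicate 1. Nfasc went from -1.46 to -0.29. Further Nfasc probe sets gave 0.08 and 0.73, neither called, and which form of Nfasc each reads was not tested. Neuronal members such as Kcna2 and Scn1a were not called.

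Outside the oligodendrocyte lists, Gsn, which severs actin filaments, was at 11.31, 11.24 and 11.35 against 9.36, 9.26 and 9.23 at day 4 and at 12.97, 12.90 and 13.08 against 12.44, 12.66 and 12.29 at day 15. The mutant was lower on every array at both days. The difference was 1.49 ± 0.12, and 3 further Gsn probe sets gave 1.42 to 1.59 while 2 dim ones gave -0.35 and -0.10. Cdk18, a cyclin-dependent kinase, had 0.94 ± 0.09, from -1.55 to -0.61. Sema4d, a semaphorin, had 1.36, and Plxnb3, a plexin receptor, 1.31. Further Sema4d probe sets gave 0.61 and 0.16, neither called. Plxnb3 was not called without wild type day 4 replicate 1 (0.0543), Olig2cre/DA-Cat day 4 replicate 3 (0.053) or wild type day 15 replicate 1 (0.0516). Without variance moderation neither Sema4d (adjusted p = 0.069) nor Plxnb3 (0.109) was called.

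The Wnt targets and feedback list of 23 genes had 2 called, both negative: Nkd1 and Sp5. By genotype, 10 of the 23 were called higher at day 4 (1.3% of all genes) and 6 at day 15 (0.616%). Nkd1, a feedback inhibitor that binds Dishevelled, was at 7.97, 7.55 and 7.88 in wild type and at 10.20, 9.74 and 9.91 in Olig2cre/DA-Cat at day 4. At day 15 it was at 8.27, 8.12 and 8.19 against 8.38, 8.36 and 8.75. Mutant arrays stood far above wild type at day 4 and barely above at day 15. The genotype difference went from 2.15 ± 0.14 to 0.30 ± 0.14, of which the latter was not called, and the difference between days was -1.85 ± 0.20 (limma adjusted p = 0.000935).

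Sp5, a zinc finger factor and known Wnt target, was at 4.74, 4.69 and 5.08 against 6.16, 6.14 and 6.26 at day 4, and at 4.69, 4.22 and 4.73 against 4.80, 4.79 and 4.55 at day 15. The genotypes overlapped at day 15, and 3 of the 4 group means were under 5, below the median probe set of an array. The difference was -1.18 ± 0.19 (limma adjusted p = 0.0186). The call was lost without wild type day 4 replicate 1 (0.07) or 2 (0.0622), Olig2cre/DA-Cat day 4 replicate 1 (0.0508), 2 (0.0522) or 3 (0.0727), wild type day 15 replicate 1 (0.0651) or Olig2cre/DA-Cat day 15 replicate 3 (0.0569).

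Prss56, a secreted serine protease, shared this shape. It was at 4.39, 4.55 and 4.40 against 8.14, 7.78 and 8.06 at day 4 and at 4.07, 4.08 and 4.15 against 5.93, 5.53 and 6.42 at day 15. It was clearly higher in the mutant at both days, from a low wild-type level. The difference went from 3.54 ± 0.17 to 1.86 ± 0.17, giving -1.68 ± 0.24 (limma adjusted p = 0.00796). It was not called without variance moderation (0.0842) or with Eif2s3y as a covariate (0.0655). Hmga2, a chromatin protein of immature cells, went from 0.69 to 0.12 (-0.57 ± 0.09), and fell between days in both genotypes. Its call was lost by the mean over its probe sets (adjusted p = 0.0797) and without the 3 arrays apart in Eif2s3y or Xist (0.064). Nkd1, Sp5, Prss56 and Hmga2 were the 4 genes higher at day 4 and less so at day 15. All 4 fell in Olig2cre/DA-Cat between the days, a direction that their selection favours.

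The promoters of Sp5 and Prss56 are shown because these were the 2 of the 4 with the TCAAAG letters; that of Nkd1 held neither motif. Capitals mark the same letters as in Mobp, in the 250 bases before the RefSeq start (GRCm38.p6): Sp5 at chr2:70474673-70474922 and Prss56 at chr1:87183064-87183313, both on the plus strand.
Sp5: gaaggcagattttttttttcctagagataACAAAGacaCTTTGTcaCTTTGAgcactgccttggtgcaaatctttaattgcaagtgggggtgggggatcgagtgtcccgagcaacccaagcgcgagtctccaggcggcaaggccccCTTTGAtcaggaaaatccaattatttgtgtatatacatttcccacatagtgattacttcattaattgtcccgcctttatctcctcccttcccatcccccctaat
Prss56: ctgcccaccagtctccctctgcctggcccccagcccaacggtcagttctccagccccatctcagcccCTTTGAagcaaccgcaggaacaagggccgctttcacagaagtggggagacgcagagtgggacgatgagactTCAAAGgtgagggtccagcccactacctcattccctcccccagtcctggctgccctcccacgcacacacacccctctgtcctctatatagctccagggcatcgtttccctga
Sp5 held 2 matches of each motif and Prss56 held 2 of TCAAAG. With 4 genes and a share of 15.8% over all genes, this is a description.

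Other Wnt targets had no call. Wif1, a secreted Wnt antagonist, was at 3.87, 4.47 and 4.06 against 7.35, 6.69 and 6.84 at day 4, and at 3.80, 3.65 and 3.95 against 6.58, 6.56 and 6.81 at day 15. The mutant arrays lay far above wild type at both days, by 2.83 ± 0.18 and 2.85 ± 0.18. Wild-type levels were under 5 on every array, and whether so low a signal limited both differences was not tested. The difference between days was 0.02, with a 95% interval of -0.52 to 0.56. Notum, which inactivates Wnt ligands, was at 2.09 and 1.14 (-0.95, limma adjusted p = 0.0906; 0.0379 without Olig2cre/DA-Cat day 4 replicate 2), Axin2 at 1.05 and 0.51 (-0.54, adjusted p = 0.0925) and Lef1 at 0.70 and 0.23 (-0.46, adjusted p = 0.0935). Over the whole list 13 values were negative and 10 positive, with a median of -0.19. Of 57 Wnt ligands, receptors and transducers 0 were called by limma, the smallest adjusted p being 0.191.

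A further 18 genes were called at day 15 only, all lower in Olig2cre/DA-Cat: Nmral1, Dct, Masp1, Nrbp2, Mast3, Gm36012, Cpm, Pogk, Sbf1, Mfsd13b, Hs3st1, Stmn4, Kctd13, Sass6, Shtn1, Hebp1, Creb5 and Fnbp1. Their median genotype difference was 0.12 at day 4 and -0.64 at day 15. In wild type 14 of the 18 rose between the days and 1 fell, and in Olig2cre/DA-Cat 5 rose and 6 fell. The shares of all genes called for such changes were not counted, and a negative difference favours a larger rise in wild type. None of the negative genes was on an oligodendrocyte list. With 29, 18 and 18 of 18194 genes on these lists, that is near the share over all genes and is no result about them. Calls held without any 1 array for 10 of the 18, and Fnbp1 lost its call without each of the 12.

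Nmral1, an NADPH-sensing protein, showed the largest day 15 gap of the 18. It was at 7.29, 7.28 and 7.31 against 7.27, 7.42 and 7.23 at day 4, and at 8.51, 8.31 and 8.46 against 7.19, 7.53 and 7.28 at day 15. Only the wild-type arrays of day 15 stood apart. It rose by 1.13 in wild type, its change in Olig2cre/DA-Cat was 0.03, and the difference between days was -1.11 ± 0.13 (limma adjusted p = 0.00134).

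Cpm, a membrane carboxypeptidase, was at 6.41, 6.54 and 6.51 against 6.18, 6.34 and 6.27 at day 4, and at 9.09, 9.02 and 9.11 against 8.05, 8.17 and 7.84 at day 15. It rose in both genotypes, by 2.59 and 1.76, with the mutant arrays below wild type at each day. The difference was -0.83 ± 0.12. Dct, an enzyme of melanin synthesis, likewise rose in both, by 1.40 and 0.43 (-0.97 ± 0.11).

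Masp1, a protease of the lectin complement pathway, did not change in wild type beyond the test: 7.84, 7.82 and 7.90 at day 4 and 8.04, 7.84 and 7.89 at day 15. In Olig2cre/DA-Cat it was at 8.00, 8.01 and 8.08 and then at 7.34, 7.34 and 7.17, and fell by 0.75. The mutant arrays of day 15 were the lowest of the 12. The difference was -0.81 ± 0.10, and the mean over its 5 probe sets was not called (adjusted p = 0.268). Nrbp2, a pseudokinase, and Pogk, a gene derived from a transposon, also had lower mutant levels at day 15 than at day 4 (-0.71 and -0.62), with no called change in wild type. By the mean over their probe sets Cpm (0.144) and Pogk (0.0855) were not called either. Mast3, a microtubule-associated kinase (-0.75), Sbf1, a myotubularin-related protein (-0.58), and Mfsd13b (-0.71) rose in wild type, with no call for their change in the mutant. Without the 3 arrays apart in Eif2s3y or Xist, Mast3 (adjusted p = 0.133), Sbf1 (0.095), Mfsd13b (0.0992) and Pogk (0.0902) were not called.

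The sign of the genotype difference turned for 3 genes called at both days. Sh3bp2, a signalling adaptor, was at 6.49, 6.52 and 6.75 against 7.17, 6.995 and 7.35 at day 4 and at 6.55, 6.36 and 6.27 against 5.76, 5.43 and 5.63 at day 15. The mutant was above all wild-type arrays at day 4 and below all at day 15. The difference went from 0.59 ± 0.12 to -0.79 ± 0.12 and was -1.37 ± 0.16 (limma adjusted p = 0.00188).

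Pld6, a mitochondrial member of the phospholipase D family, was at 7.56, 7.43 and 7.56 against 8.03, 8.16 and 8.24 at day 4 and at 6.20, 6.24 and 6.38 against 5.99, 6.01 and 5.77 at day 15. It fell in both genotypes (-1.25 and -2.22), so the order of the genotypes reversed. The difference was -0.97 ± 0.12 (limma adjusted p = 0.00202). Tbc1d16, a GTPase-activating protein, went from 0.33 to -0.33 (-0.66 ± 0.11), with a call lost without wild type day 4 replicate 1 (0.0535) or 2 (0.0596), Olig2cre/DA-Cat day 4 replicate 2 (0.0625), or wild type day 15 replicate 1 (0.0598) or 2 (0.0583). 2700046A07Rik, Gm11627 and Asxl3 also changed sign and were called at day 4 only, and Adamts20 was called at neither day.

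The other 2 genes with a positive difference were Srpx and Krtap6-5. Srpx, a sushi repeat protein, was at 5.11, 5.20 and 5.22 against 5.31, 5.15 and 5.13 at day 4 and at 4.73, 4.21 and 4.84 against 6.40, 6.14 and 6.36 at day 15. The groups overlapped at day 4 and stood apart at day 15, where the mutant was higher by 1.71 ± 0.14. The difference was 1.69 ± 0.19 (limma adjusted p = 0.00134). Krtap6-5, a hair keratin-associated protein, had all group means under 4. Its genotype difference was -0.44 at day 4 and 0.14 at day 15, the latter not called. The difference of 0.59 ± 0.10 lost its call without 6 of the 12 arrays, at adjusted p of up to 0.0714.

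**Figure D4:**
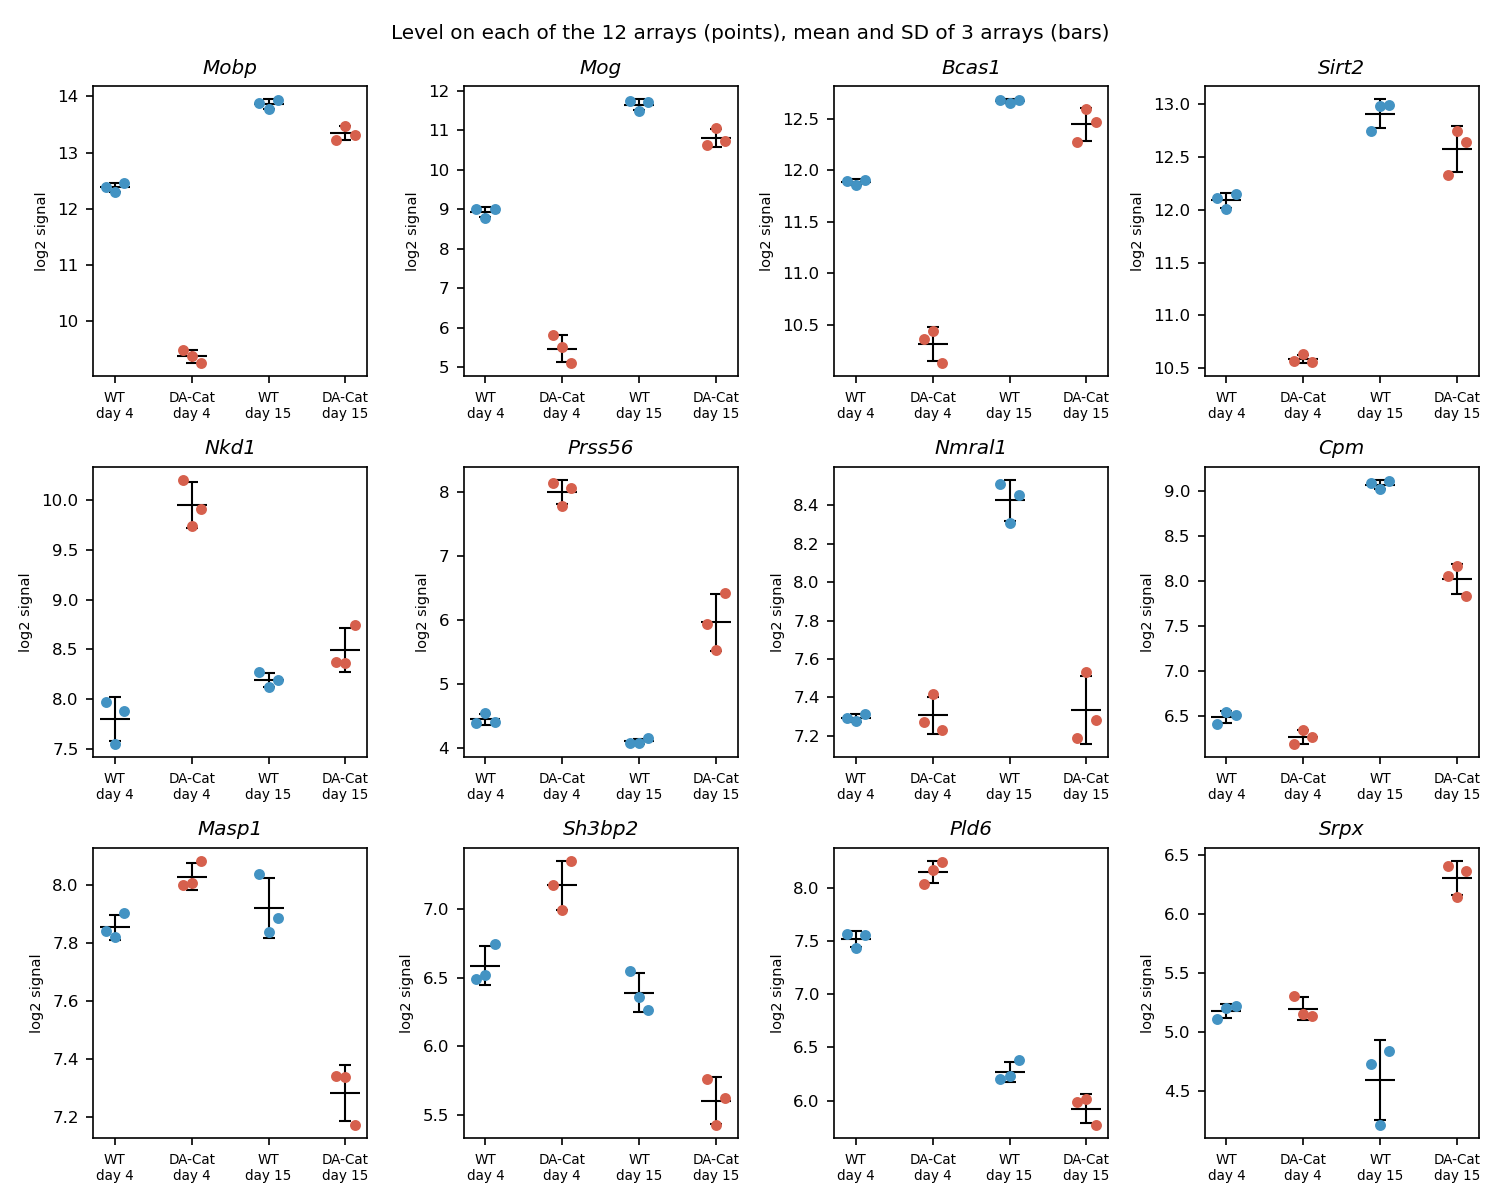
Log2 signal of 12 genes on each of the 12 arrays (points), with mean and SD of 3 arrays (bars), wild type (WT) in blue and Olig2cre/DA-Cat in red; the vertical axes do not start at 0. Mobp, Mog, Bcas1 and Sirt2 show a wide gap at day 4 and a narrow one at day 15, Nkd1 and Prss56 the same with the mutant on top, Nmral1, Cpm and Masp1 a gap below wild type at day 15, Sh3bp2 and Pld6 a change of order, and Srpx a day 15 rise.

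Of 35 lists, 28 had no called member. Lists share members: the called genes of the node, sphingolipid and matrix lists (Nfasc, Hapln2, Ugt8a, Fa2h and Tnr) are also on the oligodendrocyte lists. Microglia and macrophage genes had 19 of 19 negative values with a median of -0.19, from -0.43 to -0.07, against a median of -0.01 over all genes. None was called by limma, and the smallest adjusted p was 0.285. Members of a list were measured on the same arrays, so their signs are not independent. C1qa, a complement subunit, was at 0.28 and -0.13. Astrocyte genes had 0 of 20 called and a median of 0.14, and Gfap was at 0.36 (limma adjusted p = 0.413). Neuron and motor neuron lists had medians of 0.08 and 0.07, and cell cycle genes -0.07. The skeletal muscle list had the highest median, 1.33, with 0 of 16 called and the array-to-array spread given above; with its level as a covariate 48 genes were called positive and 29 negative, 16 of them positive in the myelin list.

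**Figure D5:**
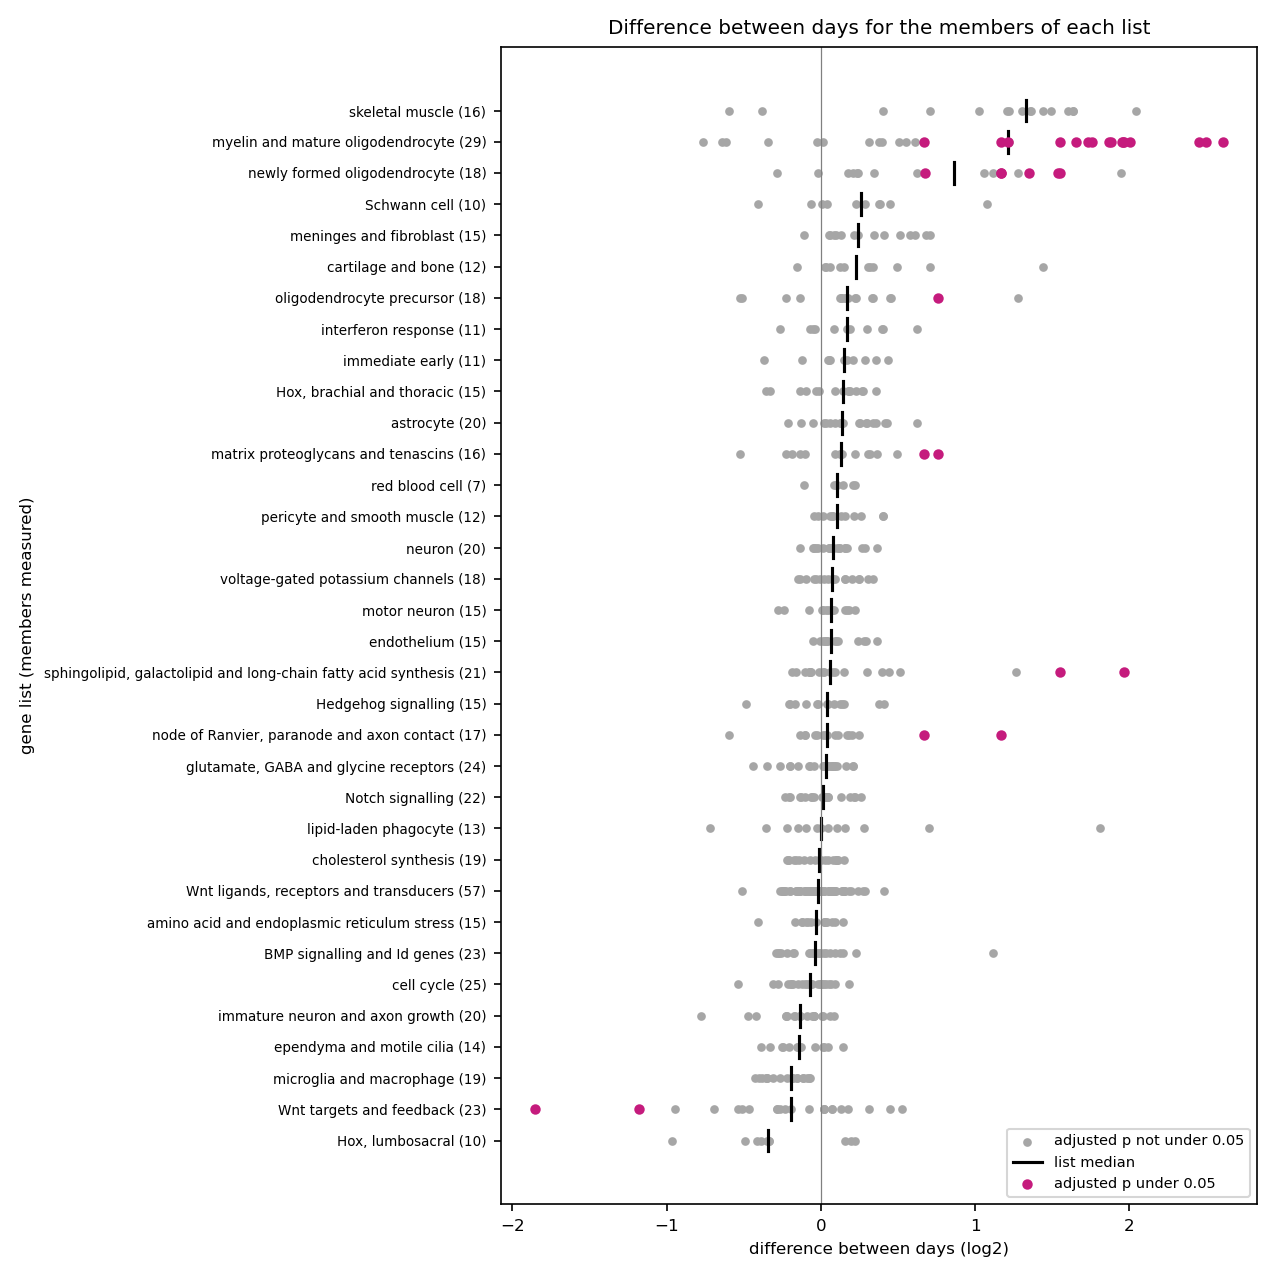
Difference between days (log2, horizontal) of every measured member of each gene list except the sex-linked one, 1 point per gene, with a bar at the list median and coloured points where the adjusted p was under 0.05. Lists are ordered by median, with the muscle list at the top and far right without a called member. The myelin and newly formed oligodendrocyte lists follow, with called members to the right. The precursor, node, sphingolipid and matrix lists also have called members to the right, and the Wnt targets list has them to the left. Called members of the node, sphingolipid and matrix lists are also on an oligodendrocyte list, so the same genes appear again.

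Precision set what could be seen. The median SE of the difference was 0.12, and the 95% interval lay within -1 to 1 for 17787 genes (97.8%) and within -0.5 to 0.5 for 13773. Called sizes started at 0.41, and 32 of the 64 were at least 1. Of the 64, 9 had a group mean under 5. Several probe sets were present for 35 of the called genes, and for 27 of these all had the same sign; the 8 with an opposite sign were Bcas1, Gsn, Hmga2, Masp1, Nipal4, Slc44a1, Srpk3 and Tbc1d16.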

How the data were processed

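Total RNA of mouse spinal cord was hybridised to 12 one-colour Affymetrix 3' arrays, 3 per group. The deposited values are log2 signals per probe set, a scale inferred from their range, and the authors' background correction and normalization are not given in the sources used here. The platform annotation lists 1 symbol for 34958 of 45101 probe sets, several for 932 and none for 9211; 34754 matched RefSeq (GRCm38.p6) by Entrez identifier. For each of 18194 symbols the probe set with the highest mean was kept, with no filter on brightness.

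All arrays were fitted in limma 3.58.1 (R 4.3.3; lmFit, contrasts.fit, eBayes without trend or robust) with 1 mean per group. Tests were two-sided, with Benjamini-Hochberg adjustment over all genes at 0.05. The fit was tested on simulated data with independent errors, so correlation between arrays was not simulated. Of 100 genes given a difference of 0.5 in log2, 37% were recovered, and of 100 given 1, 98%. Of 143 calls, 8 were false. The number of arrays limits the precision.

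Named genes were the 14 positive and 14 negative genes with the smallest p, passing over clone names and sex-linked genes, a panel of lineage and Wnt genes, up to 5 members per described list, and called genes grouped by shape. Other genes named (among them Aspa, Opalin, Ninj2, Efnb3, Car2 and Cryab) were chosen after their values were seen. Members, 35 gene lists (619 of 664 entries measured) and alternatives were chosen with earlier results of these data known. Alternatives changed normalization, filters, moderation, probe sets, covariates and arrays. Lists were counted, not tested. Promoters came from RefSeq.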

Additional observations from a re-analysis of the deposited data

Results flagged for a closer look

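The genotype difference itself was tested between day 4 and day 15, and it differed for 64 of 18194 genes (0.352%). The 14 named genes with a positive difference between days, in log2, were Mobp (2.50), Mbp (1.65), Fa2h (1.55), Ermn (2.45), Tmem88b (2.01), Mag (1.95), Gsn (1.49), Ugt8a (1.97), Cldn11 (1.96), Mog (2.61), Mal (1.76), Cnp (1.17), Bcas1 (1.35) and Cdk18 (0.94). The 14 with a negative one were Nkd1 (-1.85), Dct (-0.97), Nmral1 (-1.11), Sh3bp2 (-1.37), Pld6 (-0.97), Masp1 (-0.81), Nrbp2 (-0.80), Mast3 (-0.75), Cpm (-0.83), Pogk (-0.62), Prss56 (-1.68), Hmga2 (-0.57), Sbf1 (-0.58) and Mfsd13b (-0.71). All 28 were called without any 1 of the 12 arrays, but they were picked for the smallest p on those same arrays. Over all called genes, calls held in this way for 25 of 35 positive and 17 of 29 negative genes. Bcas1, Masp1, Cpm, Pogk, Hmga2, Prss56, Mast3, Sbf1 and Mfsd13b each lost their call under some other alternative. Positive values are smaller log2 deficits of Olig2cre/DA-Cat at day 15 than at day 4. Negative values are lower relative levels at day 15.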

How the results depend on the processing

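All 35 positive and 29 negative genes kept their sign under each of the 26 alternatives on the log2 scale in which they were tested, and 18 and 6 of them were called in every one. Without single arrays, 45 to 87 genes were called, 27 to 57 positive, 18 to 40 negative, 14 to 17 in the myelin list and 1 to 2 in the Wnt target list. Without the dimmest 30% of genes 44 were negative and 1 Wnt target was called; without the dimmest 50%, 117 genes were called, 55 positive and 62 negative, with fewer genes tested. Trend and robust moderation gave 108 genes, 61 of them negative, and array weights 118, with 56 positive and 62 negative. With no variance moderation 23 positive genes and 1 Wnt target were called, and with Eif2s3y as a covariate 1 Wnt target. Quantile normalization moved the split from 35 positive and 29 negative to 48 and 25. With 32 added to the linear signal, chosen after seeing the data, 48 were negative. On the linear signal itself, also chosen after seeing the data, 21 of the 35 positive genes kept their sign. Where not said, the cause was not tested. Leaving out the 3 arrays apart in Eif2s3y or Xist, also chosen after seeing the data, gave 39 genes, 22 positive and 17 negative, with fewer samples. Replicate numbers were not treated as pairing the samples, since the labels tie no number to a litter or batch. Deviations from the group mean of same-numbered wild-type and mutant arrays of the same day correlated at 0.02 to 0.30. They were positive in 6 of 6 pairs and over 0.1 in 4. The 12 other-numbered pairs lay at -0.31 to 0.08, and 9 of 12 arrays were closest to their own number. Since deviations cancel within a group, positive values for same-numbered pairs lower those of the others, which are not an independent baseline. Between days, 12 same-numbered pairs lay at -0.34 to 0.13. With 1 replicate block over both days 65 genes were called, 38 positive and 27 negative. With the replicate block within each day, chosen after seeing the data, 51 were called, 31 positive and 20 negative, 14 of them in the myelin list and 1 in the Wnt target list; Sp5 (adjusted p = 0.0684), Hapln2 (0.107), Pllp (0.0663), Pogk (0.0663), Mfsd13b (0.0663) and Tbc1d16 (0.0792) were among the calls lost. The mean over all probe sets of a gene gave 56 genes, and Hmga2 (adjusted p = 0.0797) and Tbc1d16 (0.487) then lost their call. Mfsd13b lost it with Eif2s3y as a covariate (0.0778). Sp5, Prss56, Wif1 and Krtap6-5, among others, had low signals, and Mbp had signals near the top. Whether this limited their differences was not tested. With 32 added to the linear signal, Hapln2 fell to 0.18 (limma adjusted p = 0.537) and Nipal4 to 0.83 (0.19), neither called. Sox2ot, Adamts4, Krtap6-5, Mob3b and Lims2 lost their calls there too. Srpx on the wild-type arrays of day 15 was under 5, as was the mean level of Mfsd13b (4.82).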
